A study of Mus musculus with 12 samples.

Results

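The genes followed here, 10 in number, belong to the response to low oxygen, and were measured in livers and liver tumors of mice. They are *Hif1a*, which encodes the oxygen-regulated subunit of hypoxia-inducible factor 1 (HIF1), and 9 genes known as HIF1 targets, namely *Vegfa*, *Ndrg1*, *Pdk1*, *Bnip3*, *Egln1*, *Egln3*, *Adm*, *P4ha1* and *Ankrd37*. They were taken by name, as a list, and no measured value entered the rule, although earlier results of these data were known when the list was chosen. The 10 genes are among 16985 gene symbols in the deposited values, and all 10 passed the filter on low values that left 14379 genes for testing.

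The samples are 12 mice in 4 groups of 3. Normal liver came from wild-type C57BL/6 mice. The other 9 mice carried liver tumors named *c-MYC/MCL1/Rictor*KO*Tsc2*KO and received vehicle, MLN0128 or everolimus by gavage, each drug at 1 mg/kg per day, 6 days a week, for 3 weeks from day 6 after injection, with tissue taken 3.7 weeks after injection. The labels give these times, but the description of this RNA-seq experiment elsewhere in the source text has 3 days of treatment in place of 3 weeks, so the length of drug exposure behind every drug comparison is not settled. The tumors were made by hydrodynamic tail vein injection, into mice that carry Rictor fl/fl and Tsc2 fl/fl, of plasmids for c-MYC (under the EF1α promoter), MCL1 and Cre, so every tumor group lacks both floxed genes in the hepatocytes that took up the Cre plasmid, and other cells of the same liver do not. MLN0128 blocks the kinase mTOR itself, whereas everolimus, an analog of rapamycin, acts on mTOR complex 1 (mTORC1) and leaves part of its output, above all the 4EBP1 branch, less affected. The comparison of the drugs was designed to separate the genes below these branches.

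HIF1 is a pair of proteins, HIF1A and ARNT, that binds DNA at short sites with the core ACGTG or GCGTG. When oxygen is present, prolyl hydroxylases (the *Egln* genes) mark HIF1A, the VHL ubiquitin ligase recognizes the mark, and the protein is destroyed, so HIF1 is set mainly at the level of the protein and the mRNA of *Hif1a* need not move with its activity. mTORC1 promotes the translation of *Hif1a* mRNA, and HIF1 targets include most glycolytic enzymes, the angiogenic factor VEGFA and the hydroxylases themselves, which form a feedback loop. In liver, oxygen falls along the way from the portal to the central vein.

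Each library held 17163340 to 25179673 reads, recovered from the deposited FPKM (fragments per kilobase of exon, scaled to library size). The targeted genes were measured first. *Rictor* stood at 1.65 to 2.57 FPKM in normal livers, 1.05 to 1.5 in the vehicle tumors, 1.65 to 2.21 in the MLN0128 tumors and 1.58 to 1.93 in the everolimus tumors. In the same order, *Tsc2* stood at 4.5 to 5.32, 2.01 to 2.31, 2.81 to 3.96 and 2.78 to 2.87 FPKM. On the deposited scale *Tsc2* was lower in all 9 tumors than in the 3 livers, whereas *Rictor* in the drug-treated tumors overlapped normal liver. This order was lost with plain library totals: *Tsc2* stood at 2.63 to 3.16 in normal livers, 2.26 to 2.65 in the vehicle tumors, 3.25 to 4.97 in the MLN0128 tumors and 3.06 to 3.39 in the everolimus tumors, and *Rictor* at 0.979 to 1.5, 1.2 to 1.69, 1.91 to 2.77 and 1.74 to 2.32. The levels of the targeted genes therefore did not check the tumor labels independently of the scaling. These gene totals do not isolate the deleted exons. MLN0128 replicates 1 and 2 held *Xist* RNA (191 and 155 FPKM) and no reads of 4 Y-linked genes, whereas the other 10 libraries showed the opposite. Whether these 2 of the 3 MLN0128 libraries came from mice of the other sex or from exchanged samples could not be settled, and in comparisons with the MLN0128 group this difference and the drug cannot be told apart. Values with MLN0128 replicate 3 alone are therefore given beside them. The summed level of 9 hepatocyte markers, which check the labelled tissue, was 87110 to 106600 FPKM in the normal livers and 2039 to 8201 in the tumors, and none was at 0. Bulk RNA cannot tell apart fewer cells of a type and less RNA per cell.

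The deposited FPKM also carry a scaling between libraries, a factor of 0.585 to 0.596 for the normal livers and 1.10 to 1.37 for the tumor libraries. With it, the median log2 fold change of all genes between vehicle-treated tumors and normal liver was 0.06. With plain library totals it was 0.62, with libraries rescaled to one sum 0.80, and with quantile normalization 0.04. For MLN0128 against vehicle it was -0.01, and 0.17 with libraries rescaled to one sum. Fold changes and orders of levels against normal liver therefore depend on the scaling, library values in FPKM are on the deposited scale, and those of the 10 genes are given under each in the plot of scalings. Changes are log2 fold changes of log2(FPKM + 1), which understates low genes, with the standard error (SE). A gene was called higher or lower at a Benjamini-Hochberg adjusted p under 0.05, over all genes tested, in limma's moderated test. The p-values rest on the spread among the 3 mice within each group, pooled over all groups and moderated across genes. An exact permutation test of 3 against 3 could not go below 0.1.

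Of the 10 genes, 9 had a promoter in the RefSeq table for GRCm38.p6 (*Ndrg1* had no entry there). The promoters of 3 genes are shown because these genes parted in the tumors: *Bnip3* and *Egln3* fell with MLN0128, and *P4ha1* passed the test with neither drug. Each is the 250 bases before the RefSeq start, read 5′ to 3′ on the gene's strand, with every ACGTG or GCGTG, on either strand, in capitals.
Bnip3 (chr7:138909507-138909756, minus strand): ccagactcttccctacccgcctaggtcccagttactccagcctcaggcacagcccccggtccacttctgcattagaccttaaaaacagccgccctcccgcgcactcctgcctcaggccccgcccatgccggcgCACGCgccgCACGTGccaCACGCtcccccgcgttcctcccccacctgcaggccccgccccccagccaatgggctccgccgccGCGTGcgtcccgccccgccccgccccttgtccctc
Egln3 (chr12:54203875-54204124, minus strand): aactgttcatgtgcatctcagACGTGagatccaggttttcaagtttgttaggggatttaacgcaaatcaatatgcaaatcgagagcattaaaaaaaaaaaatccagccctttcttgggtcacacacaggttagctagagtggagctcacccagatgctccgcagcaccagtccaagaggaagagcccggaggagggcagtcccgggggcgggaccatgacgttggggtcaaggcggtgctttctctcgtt
P4ha1 (chr10:59323046-59323295, plus strand): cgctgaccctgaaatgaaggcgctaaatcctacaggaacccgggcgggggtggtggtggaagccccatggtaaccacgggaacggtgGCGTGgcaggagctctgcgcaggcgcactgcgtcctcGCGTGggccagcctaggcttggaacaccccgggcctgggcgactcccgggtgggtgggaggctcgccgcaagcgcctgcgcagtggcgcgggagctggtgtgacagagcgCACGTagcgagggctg

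The *Bnip3* window held 5 matches, the first 117 and the last 35 bases before the start, and 2 of them overlap in a CACGTG, the palindrome that MYC and other E-box proteins also bind. *Egln3* held 1 match, 229 bases before the start, and *P4ha1* held 3. *Ankrd37* held 4 matches, *Hif1a* 3, of which 2 overlap in a CACGTG, and *Egln1* and *Adm* 2 each. *Pdk1* and *Vegfa* have a pair of annotated promoters each, with 1 match and none for *Pdk1*, and none and 2 for *Vegfa*. Of all 32851 promoters of this length, 38.6% held ACGTG or GCGTG and 6.02% held CACGTG. Among the 9178 promoters of at least 60% G and C the first share was 63.8%, and the windows of *Bnip3*, *P4ha1* and *Egln3* had 72.4%, 69.6% and 50.8% G and C. A match is a run of letters and not a measured binding site.

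*Hif1a* (ENSMUSG00000021109.13; GRCm38 chr12:73901375-73947530, plus strand) was nearly level across the groups on the deposited scale. Its mRNA stood at 12.1, 12 and 11.3 FPKM in normal livers, 12.8, 12.3 and 12.5 in the vehicle tumors, 15.0, 13.3 and 11.1 in the MLN0128 tumors, and 11.5, 9.84 and 13.3 in the everolimus tumors. The vehicle libraries lay just above the normal livers, and both drug groups overlapped vehicle. The difference of vehicle from normal liver was 0.08 (95% interval -0.20 to 0.36, adjusted p = 0.589) with the deposited scaling and 0.93 with plain library totals. It was called, as higher with vehicle, with plain library totals and with libraries rescaled to one sum, and not with quantile normalization. Against vehicle it was 0.05 with MLN0128 (adjusted p = 0.779) and -0.12 with everolimus (adjusted p = 0.6). With MLN0128 replicate 3 alone the first of these turned to -0.16. Between the drugs the difference was 0.17 (adjusted p = 0.425), and -0.043 with MLN0128 replicate 3 alone.

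**Figure D1:**
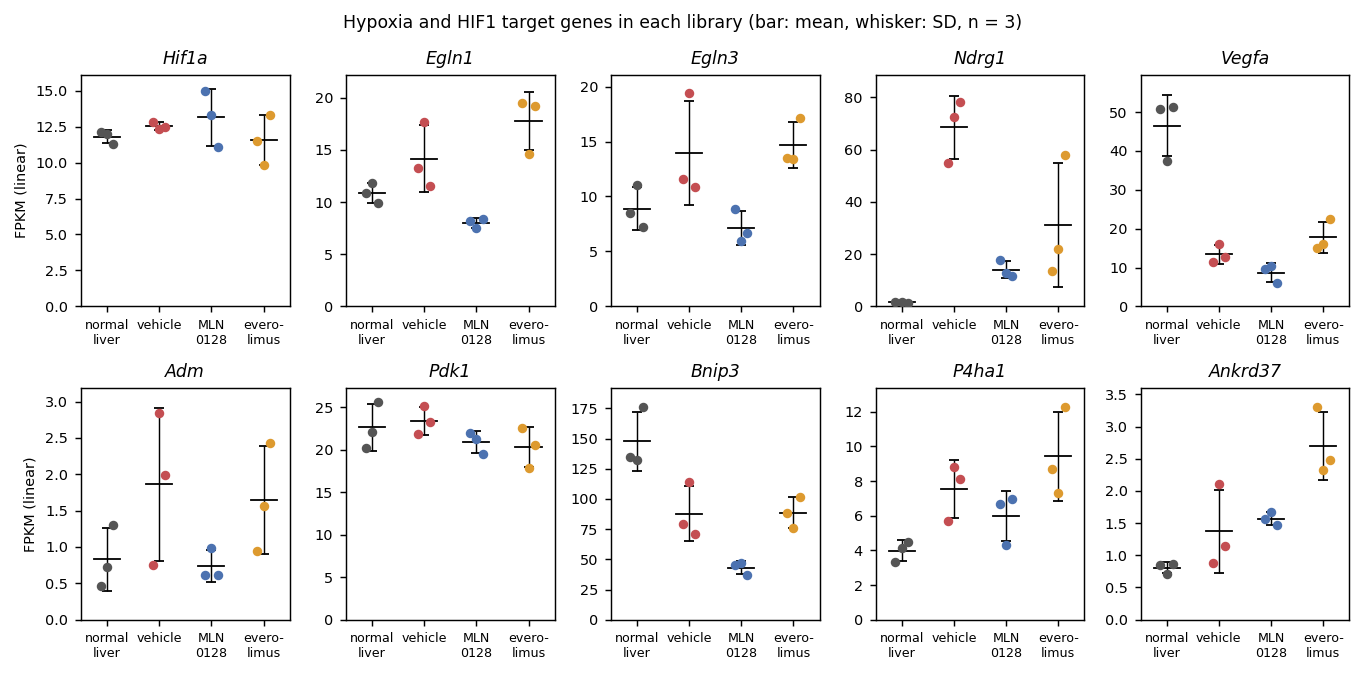
FPKM (linear axis from 0) of the 10 genes in each of the 12 libraries, as points, with the mean and SD of the 3 mice a group. *Ndrg1* is near the axis in normal liver and highest with vehicle, and *Vegfa* and *Bnip3* are highest in normal liver. *Hif1a* and *Pdk1* are nearly level on this, the deposited scale. The 3 MLN0128 libraries lie below the 3 everolimus libraries in *Egln1*, *Egln3*, *Bnip3* and *Vegfa*, and also in *P4ha1* and *Ankrd37*, which were not called between the drugs. The share of all genes without such overlap was not counted.

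The prolyl hydroxylases *Egln1* and *Egln3*, which mark HIF1A for destruction and are themselves HIF1 targets, were both lower with MLN0128 than with vehicle or everolimus. *Egln1* (PHD2, the main oxygen sensor in most cells; chr8:124908587-124949324, minus strand) stood at 10.9, 11.8 and 9.87 FPKM in normal livers, 13.3, 17.7 and 11.5 in the vehicle tumors, 8.21, 7.48 and 8.35 in the MLN0128 tumors, and 19.5, 14.6 and 19.2 in the everolimus tumors. On the deposited scale, though not with plain library totals, its 3 MLN0128 libraries were the lowest of the 12. *Egln1* fell by 0.73 with MLN0128 (SE 0.156, adjusted p = 0.00482) and was also lower with MLN0128 than with everolimus (log2 fold change -1.05, adjusted p = 0.00752). Everolimus against vehicle gave 0.32 (adjusted p = 0.219), and vehicle against normal liver 0.34 (adjusted p = 0.0734; 1.18 with plain library totals).

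*Egln3* (PHD3; chr12:54178981-54203860, minus strand) stood at 8.5, 11 and 7.2 FPKM in normal livers, 11.6, 19.4 and 10.9 in the vehicle tumors, 8.86, 5.94 and 6.64 in the MLN0128 tumors, and 13.5, 13.4 and 17.1 in the everolimus tumors. The MLN0128 libraries lay below both other tumor groups and, on the deposited scale, overlapped normal liver. The fall with MLN0128 was by 0.85 (SE 0.22, adjusted p = 0.0127), and the difference from everolimus was -0.95 (adjusted p = 0.0243). *Egln3* was called higher with vehicle than in normal liver (log2 fold change 0.57, adjusted p = 0.0362), although 1 vehicle library, at 10.9, lay under the highest normal liver, and without vehicle replicate 2, at 19.4, the difference was 0.32 (adjusted p = 0.164). The call was also lost without normal liver replicates 1 or 3 (adjusted p between 0.0206 and 0.164 as each library was left out). With MLN0128 replicate 3 alone, neither hydroxylase passed against vehicle (*Egln1* -0.68, adjusted p = 0.0892; *Egln3* -0.93, adjusted p = 0.079) or against everolimus (-0.99, adjusted p = 0.0773, and -1.03, adjusted p = 0.127).

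*Ndrg1* had the widest span of the 10 genes. It encodes a cytoplasmic stress-response protein, induced by low oxygen and named for its repression by N-Myc (chr15:66929318-66969640, minus strand). It stood at 1.72, 1.75 and 1.41 FPKM in normal livers, 54.9, 72.3 and 78.1 in the vehicle tumors, 17.7, 12.9 and 11.7 in the MLN0128 tumors, and 13.5, 21.8 and 57.9 in the everolimus tumors. All 9 tumors were above all 3 livers, and the mean with vehicle was 42.1 times that of normal liver. The MLN0128 libraries lay below every vehicle library, whereas with everolimus the lowest was among the MLN0128 values and the highest was among the vehicle values.

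The rise of *Ndrg1* from normal liver to vehicle was 4.71 (SE 0.385, adjusted p = 8.51e-07), and 5.31 with plain library totals. It fell by 2.21 with MLN0128 (adjusted p = 0.0017), and the log2 fold change was -2.435 with MLN0128 replicate 3 alone (adjusted p = 0.0272). With everolimus it fell by 1.35 (adjusted p = 0.048). This last call was lost under 18 of 25 alternatives, with adjusted p from 0.00148 to 1. Without everolimus replicate 3, at 57.9 FPKM, the change was -1.92 (adjusted p = 0.00148). The difference between the drugs, -0.85, did not pass (adjusted p = 0.181, interval -1.70 to -0.01), and was -1.08 with MLN0128 replicate 3 alone (adjusted p = 0.345).

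*Vegfa*, which encodes the secreted growth factor that drives new vessels (chr17:46016993-46032369, minus strand), was higher in normal liver than in any tumor on the deposited scale. It stood at 50.8, 37.4 and 51.3 FPKM in normal livers, 11.4, 16.1 and 12.7 in the vehicle tumors, 9.61, 10.4 and 5.9 in the MLN0128 tumors, and 15.0, 16 and 22.4 in the everolimus tumors. The 3 normal livers lay above all 9 tumors, and MLN0128 lay below both other tumor groups. Its log2 fold change from normal liver to vehicle was -1.72 (SE 0.219, adjusted p = 2.65e-05). The value was -0.82 with plain library totals and -0.57 with libraries rescaled to one sum, against medians of all genes of 0.62 and 0.80.

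With MLN0128, *Vegfa* differed from vehicle by -0.60 (adjusted p = 0.0558), which did not pass. The p-value crossed the threshold with limma's voom on the recovered reads (-0.66, adjusted p = 0.0425), with MLN0128 replicate 3 alone (-1.05, adjusted p = 0.0345), without MLN0128 replicate 2 and without everolimus replicate 3, over a range of 0.0345 to 1 across the alternatives. Everolimus against vehicle gave 0.38 (adjusted p = 0.298). The drugs themselves differed, by -0.98 (adjusted p = 0.022), and by -1.425 with MLN0128 replicate 3 alone (adjusted p = 0.0447). This call was lost without everolimus replicate 3, at 22.4 FPKM (-0.81, adjusted p = 0.1), and without MLN0128 replicate 1 (-1.06, adjusted p = 0.059), and the adjusted p ran from 0.0153 to 1 over the alternatives.

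*Adm*, which encodes the vasodilator peptide adrenomedullin (chr7:110627661-110629820, plus strand), was low, at 8 to 98 reads a library. It stood at 0.458, 0.728 and 1.3 FPKM in normal livers, 0.749, 2.84 and 1.99 in the vehicle tumors, 0.609, 0.985 and 0.62 in the MLN0128 tumors, and 0.948, 1.57 and 2.43 in the everolimus tumors. The groups overlapped, and none of the 4 comparisons passed (adjusted p 0.0805 for vehicle against normal liver, 0.101 for MLN0128 and 0.901 for everolimus against vehicle, and 0.219 between the drugs). Vehicle against normal liver passed with plain library totals or libraries rescaled to one sum, with the replicate block, and without vehicle replicate 1 or normal liver replicate 3, and MLN0128 against vehicle passed with the replicate block and without vehicle replicate 1, at 0.749 FPKM (adjusted p = 0.0196). With MLN0128 replicate 3 alone *Adm* gave -0.75 against vehicle (adjusted p = 0.282) and -0.67 against everolimus (adjusted p = 0.441).

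*Pdk1* and *Bnip3* act at the mitochondrion. *Pdk1* encodes a kinase that shuts pyruvate dehydrogenase and so keeps pyruvate out of the citrate cycle (chr2:71873224-71903858, plus strand). It stood at 20.2, 22.1 and 25.6 FPKM in normal livers, 21.8, 25.1 and 23.3 in the vehicle tumors, 22, 21.3 and 19.5 in the MLN0128 tumors, and 22.6, 17.9 and 20.6 in the everolimus tumors. All 4 groups overlapped. The difference of vehicle from normal liver was 0.05 (interval -0.21 to 0.31, adjusted p = 0.726) with the deposited scaling and 0.94 with plain library totals. It was called, as higher with vehicle, with plain library totals, quantile normalization or libraries rescaled to one sum. The differences of MLN0128 and everolimus from vehicle were -0.15 (adjusted p = 0.356) and -0.20 (adjusted p = 0.33). The first of the drug values turned to 0.08 with libraries rescaled to one sum and was -0.25 with MLN0128 replicate 3 alone (adjusted p = 0.388). Between the drugs *Pdk1* gave 0.04 (adjusted p = 0.868), and -0.054 with MLN0128 replicate 3 alone.

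*Bnip3* encodes an outer-membrane receptor for the removal of mitochondria by autophagy (chr7:138890836-138909519, minus strand), and its mean level was the highest of the 10 genes in every group. It stood at 135, 132 and 176 FPKM in normal livers, 79.0, 114 and 70.6 in the vehicle tumors, 45.5, 47.2 and 36.9 in the MLN0128 tumors, and 88.0, 76.2 and 102 in the everolimus tumors. The MLN0128 libraries were the 3 lowest of the 12, and everolimus lay within the range of vehicle. *Bnip3* fell by 0.98 with MLN0128 (SE 0.195, adjusted p = 0.00319), and the log2 fold change was -1.20 with MLN0128 replicate 3 alone (adjusted p = 0.0263). It was lower with MLN0128 than with everolimus (log2 fold change -1.02, adjusted p = 0.0129; -1.23, adjusted p = 0.0675, with MLN0128 replicate 3 alone), and everolimus differed from vehicle by 0.03 (adjusted p = 0.933). Against normal liver the value depended on the scaling: vehicle was called lower as deposited (-0.76, adjusted p = 0.00429), but the difference was 0.17 with plain library totals (adjusted p = 0.394), 0.17 with quantile normalization and 0.43 with libraries rescaled to one sum. Exons of the antisense gene *Gm45507* cover 22.3% of the exon bases of *Bnip3*, and reads of the pair cannot be told apart unless strand was counted, which is not stated.

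*P4ha1* encodes a catalytic subunit of the collagen prolyl hydroxylase, an enzyme of matrix synthesis that is distinct from the oxygen sensors (chr10:59323296-59373304, plus strand). It stood at 3.31, 4.12 and 4.5 FPKM in normal livers, 5.67, 8.82 and 8.14 in the vehicle tumors, 6.68, 4.32 and 6.94 in the MLN0128 tumors, and 8.7, 7.31 and 12.3 in the everolimus tumors. On the deposited scale, vehicle and everolimus lay above normal liver, and MLN0128 overlapped both vehicle and normal liver and lay below everolimus. The rise from normal liver to vehicle was 0.77 (SE 0.215, adjusted p = 0.00741; 1.5 with plain library totals). Neither MLN0128 (-0.29, adjusted p = 0.319) nor everolimus (0.28, adjusted p = 0.441) passed against vehicle, and the drugs differed by -0.57 (adjusted p = 0.113). With MLN0128 replicate 3 alone *P4ha1* gave -0.09 against vehicle (adjusted p = 0.879) and -0.37 against everolimus (adjusted p = 0.538).

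*Ankrd37*, which encodes a small ankyrin-repeat protein and is a common member of hypoxia signatures (chr8:45996902-46005707, minus strand), was low, at 12 to 108 reads a library. It stood at 0.844, 0.707 and 0.872 FPKM in normal livers, 0.879, 2.1 and 1.14 in the vehicle tumors, 1.56, 1.68 and 1.47 in the MLN0128 tumors, and 3.3, 2.32 and 2.48 in the everolimus tumors. The everolimus libraries were the 3 highest of the 12. *Ankrd37* rose by 0.66 with everolimus (SE 0.169, adjusted p = 0.0319), a call lost without vehicle replicates 1 or 3 or everolimus replicates 1 or 3 (adjusted p 0.00356 to 0.13 as each library was left out). MLN0128 gave 0.15 against vehicle (adjusted p = 0.539) and -0.52 against everolimus (adjusted p = 0.0763), and with MLN0128 replicate 3 alone 0.09 (adjusted p = 0.856) and -0.57 (adjusted p = 0.269). Exons of *Lrp2bp* on the opposite strand cover 22.7% of its exon bases.

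**Figure D2:**
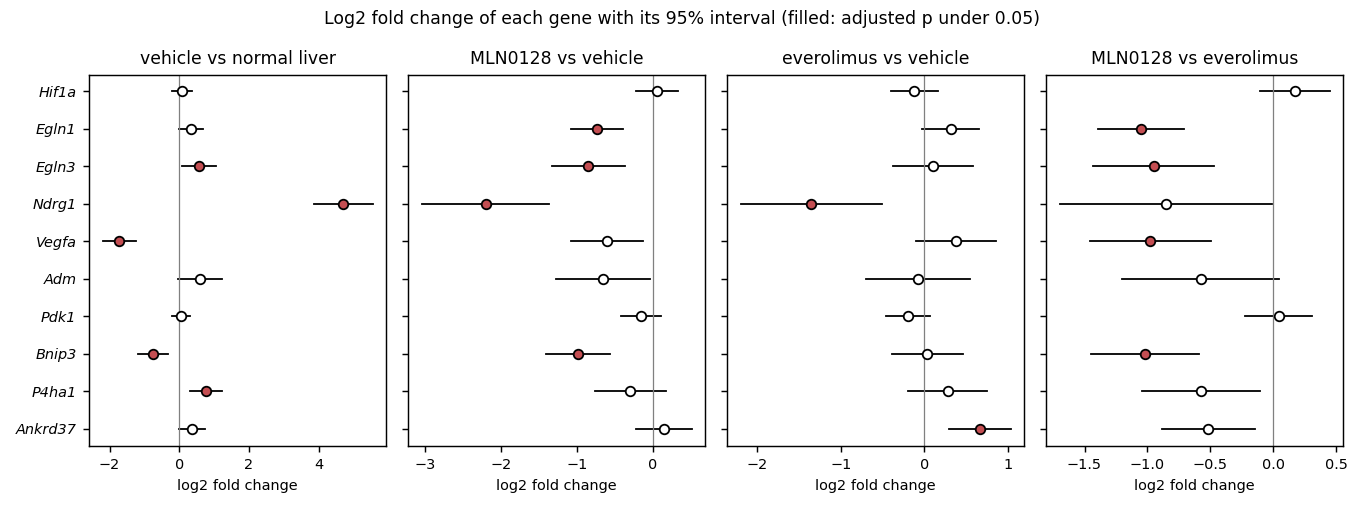
Log2 fold change of log2(FPKM + 1) of each gene (point) with its 95% interval (line) in the 4 comparisons, each panel with its own horizontal axis; filled points have an adjusted p under 0.05. Filled points lie on both sides of 0 for vehicle against normal liver, and only below 0 for MLN0128 against vehicle (4 genes) and against everolimus (4 genes).

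Counted together, 3 of the 10 genes were higher in vehicle-treated tumors than in normal liver (*Ndrg1*, *P4ha1* and *Egln3*), where 36% of all genes tested were called higher, and 2 were lower (*Vegfa* and *Bnip3*), where 33% were called lower. Their median log2 fold change was 0.35 and that of all genes 0.06. Neither count exceeds what the share of all genes would give. With plain library totals the counts became 8 higher and 1 lower, the lower gene being *Vegfa*. That scaling called 8810 of all 14379 genes higher and 2177 lower.

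With MLN0128, 4 of the 10 fell against vehicle (*Ndrg1*, *Bnip3*, *Egln3* and *Egln1*), where 17.1% of all genes fell. None was called higher, at an adjusted or an unadjusted p under 0.05 in limma, or with voom, where 14.9% of all genes were called higher. The median of the 10 was -0.63 and that of all genes -0.01. With MLN0128 replicate 3 alone, the log2 fold changes of these 4 stayed below 0 (*Ndrg1* -2.435, *Bnip3* -1.20), and that of *Vegfa* was -1.05. *Egln1* and *Egln3* no longer passed in that fit. Markers of bile duct cells moved in the same comparison. The sum of 4 of them was 1.5 to 2.01 FPKM in normal livers, 17.0 to 52.5 in the vehicle tumors, 0.743 to 3.55 in the MLN0128 tumors and 0.937 to 4.28 in the everolimus tumors, and none was at 0 in a whole group. Against vehicle, *Krt19* changed by -4.05 (log2) in the MLN0128 tumors and by -4.04 in the everolimus tumors, *Epcam* by -1.61 and -1.66 and *Sox9* by -1.51 and -1.02, all called. Their part in the changes of the 10 genes, from normal liver to vehicle or with either drug, was not tested. With everolimus, 1 gene was called higher (*Ankrd37*) and 1 lower (*Ndrg1*), where 3.77% of all genes were higher and 6.04% lower, and the medians were 0.07 for the 10 genes and 0.03 for all.

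The drugs were compared directly, because both share the vehicle libraries. Of the 10 genes, 4 were lower with MLN0128 than with everolimus (*Egln1*, *Bnip3*, *Vegfa* and *Egln3*), where 5.52% of all genes were lower. None was called higher, at an adjusted or an unadjusted p or with voom, where 3.98% were higher. The medians were -0.72 and -0.03. Of these 4 calls, 1 was left after leaving out MLN0128 replicate 1 or everolimus replicate 3, and 0 in a fit of the 2 groups by themselves. Over all genes, the 794 lower calls became 108, 96 and 5 in those fits. With MLN0128 replicate 3 alone, all 4 log2 fold changes stayed below 0.

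A stricter rule, the treat test of limma, which asks for more than a 1.5-fold change, left few of the calls. It called *Ndrg1* (higher) and *Vegfa* (lower) between vehicle and normal liver, where it called 32.7% of all genes in either direction. It called *Ndrg1* (lower) with MLN0128, where the share was 2.13%. With everolimus it called none of the 10, and 0.605% of all genes, and between the drugs none of the 10, and 0.0417% of all genes. At an unadjusted p under 0.05 in the moderated test, 2 of the 10 differed between everolimus and vehicle and 7 between the drugs. The share of all genes at that threshold was not counted, so these 2 counts have nothing to be measured against.

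**Figure D3:**
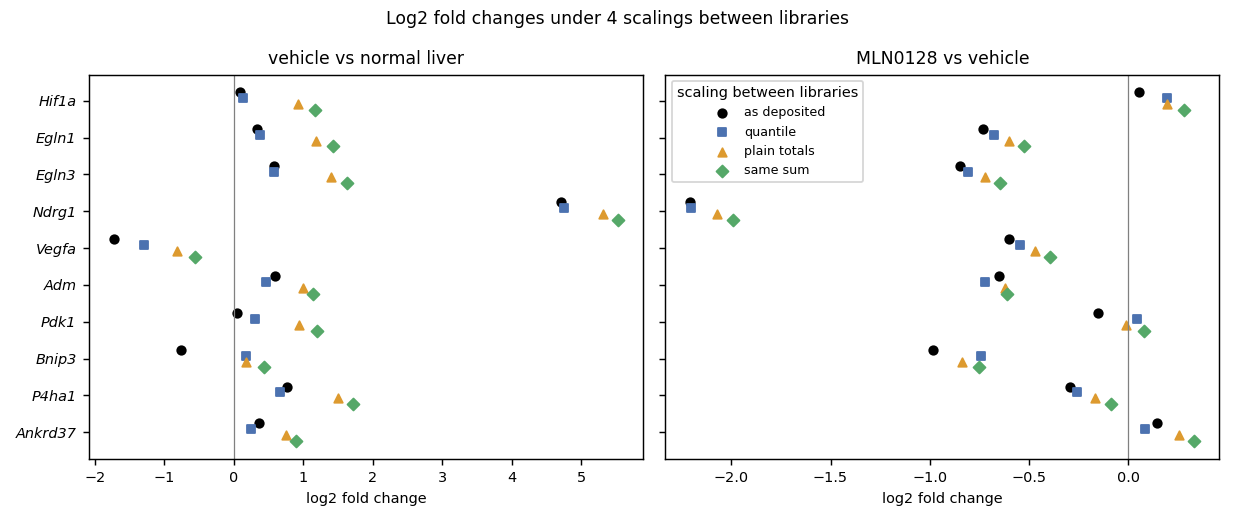
Log2 fold changes of the 10 genes in vehicle against normal liver (left) and MLN0128 against vehicle (right) under 4 scalings between libraries. On the left, plain totals and rescaling to one sum move the genes to the right and *Bnip3* crosses 0, while *Vegfa* stays below 0. On the right, the scalings lie closer together and *Ndrg1*, *Bnip3*, *Egln1* and *Egln3* stay below 0 under all 4.

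The regulators around HIF1A formed a list of 13 genes, of which 12 were tested. Among them 3 were higher with vehicle than in normal liver and 4 lower, where 36% and 33% of all genes were. The median was -0.04 and that of all genes 0.06. With plain library totals, which called 8810 of all 14379 genes higher and 2177 lower, the split was 10 higher and 1 lower. *Hif3a*, which encodes a HIF subunit with isoforms that restrain the others, rose from 0.152, 0.0541 and 0.243 FPKM to 10.6, 11.4 and 7.91 (log2 fold change 3.24, adjusted p = 4.03e-07). *Epas1*, which encodes HIF2A and is abundant in endothelium, fell from 40.7, 44.9 and 40.5 FPKM to 3.3, 2.46 and 5.7 (log2 fold change -3.21, adjusted p = 1.15e-05). In neither gene did the liver and vehicle values overlap. The sum of 8 endothelial markers was 54.1 to 64.6 FPKM in the livers and 13.8 to 20.7 in the vehicle tumors. *Clec4g* (log2 fold change -4.26), *Kdr* (-1.60), *Tek* (-1.49) and *Stab2* (-1.34) were called lower. *Pecam1* (-0.31), *Cdh5* (-0.25), *Emcn* (-0.18) and *Lyve1* (-0.11) were not called. The part of these markers in the value of *Epas1* was not tested.

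With MLN0128, 5 of the 12 regulators fell, where 17.1% of all genes fell, and the 5 are components of the VHL ubiquitin ligase. The median of the 12 was -0.16 and that of all genes -0.01. *Cul2*, its cullin scaffold, fell by 0.88 (adjusted p = 0.00117), and *Elob*, its elongin B adaptor, by 0.59 (adjusted p = 0.0036). The others were *Vhl*, *Eloc* and *Rbx1*. The count of 5 was 2 with MLN0128 replicate 3 alone and with libraries rescaled to one sum, 3 with quantile normalization and without vehicle replicate 1 or MLN0128 replicate 1, and 0 with the treat test. No regulator was called higher, although 1 was with libraries rescaled to one sum, quantile normalization or plain library totals, and *Arnt* had an unadjusted p under 0.05 and was called higher by voom. With everolimus none was called in either direction, with 1 higher (*Ep300*) at an unadjusted p under 0.05 and none by voom. Between the drugs, *Cul2* alone was called, lower with MLN0128 (-0.90, adjusted p = 0.00765), and 0 were called with MLN0128 replicate 3 alone or the 2 groups alone. Of all genes 5.52% were lower, and 5 genes in total with the 2 groups alone. Leaving out everolimus replicate 2 gave 3 lower, and leaving out MLN0128 replicate 3 gave 1 higher and 1 lower.

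The widest group was a list of 30 other HIF1 target genes, of which 26 were tested. *Epo* was not analysed here, and *Car9*, *Pfkfb4* and *Edn1* were under the filter. Vehicle-treated tumors had 18 of the 26 higher than normal liver, where 36% of all genes were higher, and 6 lower, where 33% were lower. The median was 1.58 and that of all genes 0.06. *Ddit4*, an inhibitor of mTORC1 that stress induces, rose from 4.44, 9.35 and 19.9 FPKM to 252, 197 and 220 (log2 fold change 4.40, adjusted p = 1.75e-06). *Hk2*, the hexokinase that tumors favor, rose from 0.155, 0.319 and 0.112 FPKM to 8.03, 11.8 and 10.8 (log2 fold change 3.22, adjusted p = 7.36e-08). *Pfkfb3*, which makes the activator of phosphofructokinase, fell from 22.8, 16.7 and 19.9 FPKM to 1.83, 3.05 and 2.81 (log2 fold change -2.55), and *Bnip3l*, the closest relative of *Bnip3*, fell by 1.59. With plain library totals 20 of the 26 were higher and 3 lower, where 8810 of all 14379 genes were higher and 2177 lower.

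With MLN0128, 14 of these 26 fell, where 17.1% of all genes fell, and none was called higher, where 14.9% were. The median was -0.83 and that of all genes -0.01. *Pfkfb3* had an unadjusted p under 0.05 (0.65 higher, adjusted p = 0.0625) and was called higher by voom. *Hmox1*, heme oxygenase 1, stood at 28.8, 45.2 and 50.4 FPKM with vehicle and at 5.55, 3.8 and 9.17 with MLN0128, and it fell by 2.60 (adjusted p = 0.000709). *Slc2a1*, the glucose transporter GLUT1, stood at 12.6, 29.9 and 17.9 FPKM with vehicle and at 2.47, 2.37 and 4.21 with MLN0128, and it fell by 2.34 (adjusted p = 0.000557). In both genes every MLN0128 library lay below every vehicle library. Rescaled to one sum or with plain library totals, 2 of the 26 were called higher, 1 was without MLN0128 replicate 2 or everolimus replicate 2, and 7 of the 26 were lower with MLN0128 replicate 3 alone. The sum of 7 markers of macrophages, which also make *Hmox1*, was 39.6 to 63.6 FPKM in the vehicle tumors and 15.6 to 26.2 in the MLN0128 tumors. Of these markers only *Cd68* was called lower (log2 fold change -1.595, adjusted p = 0.00157). *Marco* (-0.89), *Vsig4* (-0.57), *Clec4f* (-0.41), *Csf1r* (-0.20), *Adgre1* (-0.18) and *Timd4* (-0.08) were not called. The part of these markers in the fall of *Hmox1* was not tested.

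With everolimus, 2 of the 26 were higher and 1 lower (3.77% and 6.04% of all genes), with a median of -0.12, against 0.03 for all. *Pfkfb3* rose by 0.92 (adjusted p = 0.0371), and *Mxi1*, a MYC antagonist, rose by 0.45 (adjusted p = 0.0197). *Hmox1* fell by 1.82 (adjusted p = 0.0138). Without vehicle replicates 1 or 3 or everolimus replicate 1 the count higher was 0, and without everolimus replicate 3 or normal liver replicates 1 or 3 it was 1. The count lower was 0 without vehicle replicate 3 or everolimus replicate 1, 2 without MLN0128 replicate 2 and 3 without everolimus replicate 3. Between the drugs 10 of the 26 were lower with MLN0128, where 5.52% of all genes were, and none was called higher, at an adjusted or unadjusted p or with voom, and the median was -0.68, against -0.03 for all. *Slc2a1* differed by -1.58 (adjusted p = 0.0169) and *Slc16a3*, the lactate exporter MCT4, by -1.44 (adjusted p = 0.0437). Leaving out MLN0128 replicate 1 turned the 10 into 2, leaving out everolimus replicate 1 into 5 and everolimus replicate 3 into 1, and MLN0128 replicate 3 alone or the 2 groups alone gave 0. Over all genes, the 794 lower calls became 108, 369 and 96 when those libraries were left out, and 5 with the 2 groups alone. *Pgk1*, *Ldha*, *Aldoa* and *Eno1* have close copies elsewhere in the genome, which can share their reads.

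**Figure D4:**
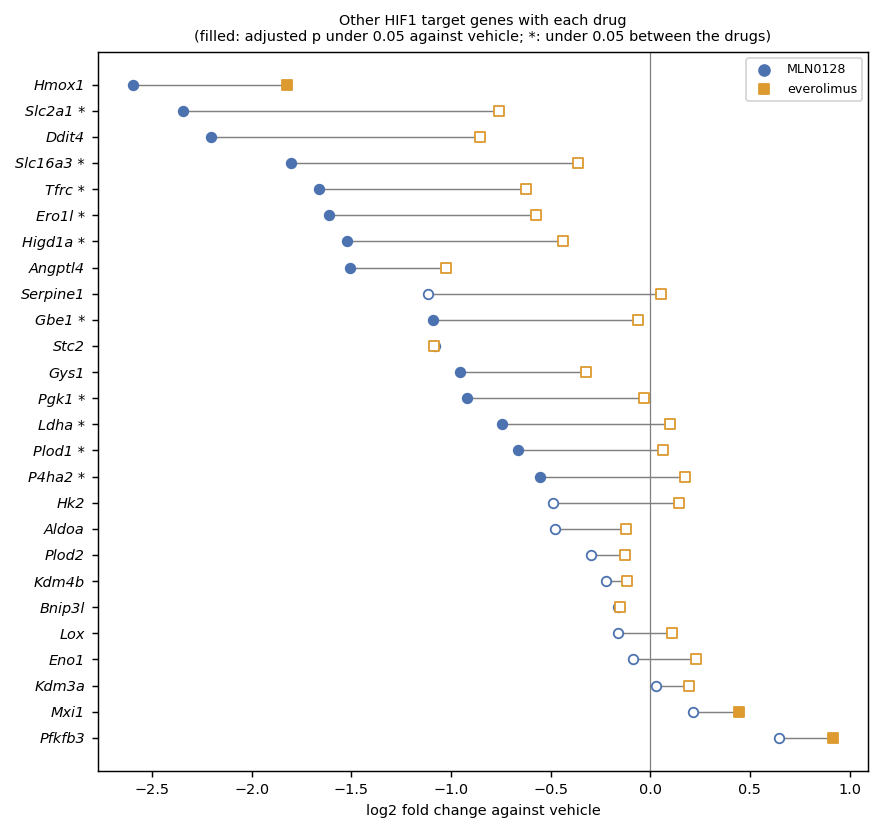
Log2 fold change against vehicle of 26 other HIF1 target genes with MLN0128 (circles) and everolimus (squares), joined by a line for each gene and ordered by the MLN0128 value; filled symbols have an adjusted p under 0.05 against vehicle, and an asterisk marks an adjusted p under 0.05 between the drugs. With MLN0128 14 genes are filled, all below 0, from *Hmox1* to *P4ha2*, and with everolimus *Hmox1*, *Mxi1* and *Pfkfb3* are filled.

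The ligands and receptors around *Vegfa* and *Adm* numbered 14, of which 13 were tested. With vehicle 3 were higher than in normal liver and 6 lower, where 36% and 33% of all genes were. The median was -0.30 and that of all genes 0.06. *Adm2*, a peptide related to adrenomedullin, was listed at 0, 0.14 and 0 FPKM in the livers and at 14.1, 18.4 and 12.9 in the vehicle tumors (adjusted p = 5.13e-07). *Vegfb*, a relative of *Vegfa*, rose by 0.85. The coreceptor *Nrp1* (log2 fold change -3.24, adjusted p = 1.83e-07) and the adrenomedullin receptor *Calcrl* (log2 fold change -1.997, adjusted p = 5.4e-07) fell in the same tumors. There the summed endothelial markers were lower than in liver, although *Pecam1*, *Cdh5*, *Emcn* and *Lyve1* were not called. Of the 13, *Kdr*, which is also an endothelial marker, *Flt4*, *Ramp2* and *Vegfc* were lower too. With plain library totals 5 were higher and 3 lower, where 8810 of all 14379 genes were higher and 2177 lower.

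With MLN0128, 5 of the 13 fell, and 1 with MLN0128 replicate 3 alone. Of all genes 17.1% fell. The count of 5 was 2 without vehicle replicate 1, and 3 without vehicle replicates 2 or 3 or MLN0128 replicates 1 or 2 and with libraries rescaled to one sum. *Adm2* stood at 0.271, 0.217 and 1.03 FPKM, at 6 to 32 reads a library, and fell by 3.45 against vehicle (adjusted p = 5.15e-05), and *Ramp1*, a partner of *Calcrl*, fell by 1.28 (adjusted p = 0.00592). With everolimus *Ramp1* fell by 1.15 (adjusted p = 0.0291), and *Adm2* stood at 6.65, 6.03 and 15.8 FPKM. The call of *Ramp1* was the only one of the 13, where 6.04% of all genes were lower. It was lost without vehicle replicates 1 or 3 or everolimus replicate 1, with the replicate block and with the 2 groups alone. Between the drugs *Adm2* differed by -2.72 (adjusted p = 0.00146) and *Vegfb* by -0.76 (adjusted p = 0.0118). The count of 2 was 1 with MLN0128 replicate 3 alone or without everolimus replicate 3, and 0 with the 2 groups alone. Over all genes 794 (5.52%) were lower, 96 without everolimus replicate 3 and 5 with the 2 groups alone. None of the 13 was called higher with either drug or between them, except that 1 was with everolimus when everolimus replicate 2 was left out. At an unadjusted p under 0.05 none was higher with MLN0128 or between the drugs and 3 were higher with everolimus, and voom called none. Endothelial markers summed to 11.3 to 15.5 FPKM with MLN0128 and 12.1 to 20.2 with everolimus, which overlap the vehicle range.

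The 10 genes of the pyruvate dehydrogenase complex and its regulators, the enzyme that *Pdk1* acts on, were all tested. Vehicle had 4 higher than normal liver and 4 lower, where 36% and 33% of all genes were. With plain library totals the counts were 6 and 1, where 8810 of all 14379 genes were higher and 2177 lower. *Pdk4*, the kinase that fasting induces, rose from 0.898, 1.14 and 1.56 FPKM to 29.5, 56.2 and 39.4 (log2 fold change 4.24, adjusted p = 1.92e-05), and *Dlat*, a catalytic subunit, rose by 0.97. *Pdk2*, a kinase of the same family, and the phosphatase *Pdp2* fell by 1.23 and 1.21. With MLN0128 *Pdk4* fell by 3.01 to 7.16, 3.13 and 2.99 FPKM (adjusted p = 0.00158), and *Dld*, the dihydrolipoamide dehydrogenase subunit, fell by 0.89. A further 2 fell, and the phosphatase *Pdp1* rose by 0.36 (adjusted p = 0.0361), where 17.1% of all genes fell and 14.9% rose. With MLN0128 replicate 3 alone 4 were lower and 0 higher, and the call of *Pdp1* was also lost whichever vehicle library was left out, and without MLN0128 replicates 1 or 2. With everolimus *Pdk4* fell by 1.86 (adjusted p = 0.0443), with libraries at 3.02, 17.6 and 18.6 FPKM. *Pdhx*, which anchors a subunit of the complex, fell by 0.52 (adjusted p = 0.0429), where 6.04% of all genes fell. Both calls were lost whichever normal liver was left out, without vehicle replicates 1 or 3 or everolimus replicate 1, with the replicate block and with the 2 groups alone, 1 of the 10 was lower without vehicle replicate 2 or MLN0128 replicate 1, and 3 were without MLN0128 replicate 3. None was higher with everolimus at an unadjusted p or by voom. Between the drugs limma called none, although *Pdk4* and *Dld* had an unadjusted p under 0.05, voom called none, and 1 was lower without everolimus replicates 1 or 2.

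Of 8 relatives of the 10 genes, 6 were tested. With vehicle *P4ha2* and *Ndrg3* rose by 1.64 and 0.62 against normal liver. *Ndrg2*, a relative of *Ndrg1* that is abundant in liver, fell by 2.39 (adjusted p = 2.08e-05), opposite to *Ndrg1*, and *Bnip3l* by 1.59, and *P4hb* and *Egln2* were lower too. Of all genes 36% were higher and 33% lower. With plain library totals 2 of the 6 were higher and 2 lower, where 8810 of all 14379 genes were higher and 2177 lower. With MLN0128 *P4hb*, the partner subunit of *P4ha1*, fell by 0.74 (adjusted p = 0.00322) and *P4ha2* by 0.55 (adjusted p = 0.0264), and 0 of the 6 were called with MLN0128 replicate 3 alone or with libraries rescaled to one sum, and 1 without vehicle replicates 1 or 3 or MLN0128 replicate 1. Of all genes 17.1% fell with MLN0128. With everolimus limma called none, with *P4hb* lower at an unadjusted p under 0.05, and voom called none. Between the drugs *P4ha2* was lower with MLN0128 by a log2 fold change of -0.73 (adjusted p = 0.0242), where 5.52% of all genes were lower. This call was lost with MLN0128 replicate 3 alone, with the 2 groups alone, and without MLN0128 replicate 1 or everolimus replicates 1 or 3, and 2 of the 6 were lower without MLN0128 replicate 2.

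Across the 9 tumor libraries, the 6756 other genes with a mean of at least 5 FPKM were ranked by how like each of the 10 they ran, as a description, since the libraries share treatments. *Egln1* ran most like *Ldha*, the glycolytic lactate dehydrogenase (Pearson r 0.976, Spearman rho 0.933, and r 0.956 without the 2 libraries farthest from the median of *Egln1*), and then *Cnot9*. *P4ha1* ran most like *Lsm14a* (r 0.970) and then *Hk2* (r 0.961, rho 0.950). *Ndrg1* ran most like *Slc25a33* (r 0.972) and *Ppfibp1* (r 0.968), *Bnip3* like *Erh* (r 0.972) and *1110004F10Rik* (r 0.971), *Egln3* like *Usp6nl* (r 0.980) and *Nomo1* (r 0.973), and *Vegfa* like *Pigs* (r 0.973) and *Cldn12* (r 0.965). For *Adm* the nearest genes were *Picalm* (r 0.950) and *St3gal1* (r 0.919), and for *Ankrd37* *Eef2k* (r 0.957) and *Ddx19a* (r 0.951). *Hif1a* and *Pdk1* were nearest to *Slc35g1* (r 0.934) and *Gadd45b* (r 0.921), and to *Ublcp1* (r 0.915) and *Glyr1* (r 0.866), and their r fell to between 0.701 and 0.836 without the 2 farthest libraries. For the pairs of the other genes that value ran from 0.827 (*Adm* with *St3gal1*) to 0.972 (*Egln1* with *Cnot9*). How high the top r among 6756 genes runs without any link was not tested.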

How the data were processed

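RNA-seq libraries of 12 mice were analyzed. The authors deposited FPKM, linear and rounded to 3 significant digits. Reads had been counted per Ensembl gene. The submitters' processing notes name FastQC 0.11.7 and GRCm38, and the aligner is not given in the sources used here. The table held 17007 rows, of which 22 had symbols turned into dates and were left out. FPKM times GENCODE M21 exon length gave whole reads (within 0.1) for 98.2% to 98.8% of values under 20 reads, where chance gives 20%, with a median of 18651852 reads a library.

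A gene was tested if 3 or more libraries held 0.5 FPKM or more (14379 genes), as log2(FPKM + 1), because FPKM are not counts. All 12 libraries entered 1 model in limma 3.58.1 (R 4.3.3), with an intensity trend, 8 residual degrees of freedom and two-sided moderated tests. The authors used edgeR's glmTreat, and limma's treat was the nearest alternative. Other alternatives were the pseudocount, the filter, the scaling, the samples fitted, the replicate block, single libraries left out, MLN0128 replicate 3 alone, and, chosen after seeing the data, plain library totals and voom on the recovered reads. The 10 genes and the companion lists were chosen with earlier results of these data known. In each companion list, the called genes with the largest changes, at most 2 each way, are named with values. Others named were chosen after their values were seen. Fits were tried on simulated data. Promoters were RefSeq's (GRCm38.p6). pandas 2.3.3 and matplotlib 3.10.9 were used.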

Additional observations from a re-analysis of the deposited data

How the results depend on the processing

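Counts are of the 10 genes. For vehicle against normal liver, 9 were higher and 1 lower with libraries rescaled to one sum (9506 and 1681 of all 14379 genes). Quantile normalization gave 5 and 1 (4955 and 4624 of all genes), and plain library totals 8 and 1 (8810 and 2177). The treat test gave 1 and 1, against 3 and 2 as reported. Leaving out single libraries gave 2 to 5 higher (5 without vehicle replicate 1). For MLN0128 against vehicle, 1 was lower with the treat test, against 4. For everolimus against vehicle, 0 were higher and 0 lower with the treat test, with only the 2 groups fitted and with the replicate block, 0 were lower with a pseudocount of 0.1, no filter, quantile normalization or rescaling to one sum, and leaving out single libraries gave 0 to 1 in each direction. For MLN0128 against everolimus, 0 were lower with the treat test and with the 2 groups alone, 1 with MLN0128 replicate 3 alone, and 1 to 5 as single libraries were left out.

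Signs turned in *Bnip3* for vehicle against normal liver (0.43 with one sum, 0.17 with quantile normalization, 0.17 with plain totals), in *Pdk1* for MLN0128 against vehicle (0.079 with one sum, 0.046 with quantile normalization), and with MLN0128 replicate 3 alone in *Hif1a* (-0.16 against vehicle, -0.043 against everolimus) and *Pdk1* (-0.054 against everolimus). Leaving out single libraries, the range held 0 for *Pdk1* in vehicle against normal liver (-0.025 to 0.14) and MLN0128 against everolimus (-0.043 to 0.12), for *Hif1a* (-0.041 to 0.16) and *Ankrd37* (-0.0040 to 0.36) in MLN0128 against vehicle, and for *Bnip3* (-0.11 to 0.24), *Egln3* (-0.042 to 0.35) and *Adm* (-0.39 to 0.17) in everolimus against vehicle. Of these values only that of *Bnip3* against normal liver had been called. The cause was not tested.

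Libraries of different groups share replicate numbers, but same-numbered libraries did not deviate together (r -0.289 to 0.148), so the numbers were not taken as pairs. With the replicate block, 4 of the 10 were higher and 2 lower with vehicle, where 5037 and 4646 of all 14379 genes were. In the same fits 5 were lower with MLN0128 (2179 of all genes) and 4 lower between the drugs (441 of all genes). *Adm* and *Ankrd37* had the fewest reads of the 10, at 8 to 108 a library. A lone library in an arm was assumed to vary like the other groups.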
